A study of Mus musculus with 9 samples.

Results

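The genes described here are 9 genes of the oligodendrocyte lineage, chosen by name from the 55450 genes counted in the series. Mbp, Mobp, Mog, Mag, Cnp and Mal belong to myelin and its cell, Olig1 and Olig2 encode transcription factors of the lineage, and Pdgfra marks its precursors. Their symbols were matched to gene identifiers by GENCODE M21, and all 9 were among the 20892 genes that passed the filter on low counts.

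Oligodendrocytes wrap axons in myelin, a stack of membrane held compact by a few abundant proteins. They arise from precursor cells that carry the receptor of platelet-derived growth factor, and the basic helix-loop-helix factors Olig1 and Olig2 direct that lineage. The ventral midbrain, where the substantia nigra lies, is crossed by myelinated tracts, so these transcripts are abundant in its tissue.

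Whole nigral tissue was dissected by hand and its RNA sequenced, in 3 groups of 3 libraries, from male mice 5 weeks after lentivirus was injected into the substantia nigra of both hemispheres. The mice were 8 weeks old when injected by the study's results and 9 weeks old at purchase by its methods. The CTR group was CX3CR1-CreERT2 mice given a Cre-dependent vector for GFP (a destabilized form in the paper's text), the CX3 group was CX3CR1-CreERT2 mice given a Cre-dependent Synuclein-expressing vector, and the DAT group was DAT-Cre mice given that same vector. CX3CR1-CreERT2 directs recombination to microglia and DAT-Cre to dopaminergic neurons. The mice of the CTR and CX3 groups received tamoxifen on 4 days, whereas no tamoxifen is described for DAT-Cre mice. No GFP control in DAT-Cre mice was analysed here, so in the comparison of DAT with CTR the Cre line, the tamoxifen and the vector cannot be told apart. The number of animals behind a library was not stated, so p-values measure the spread between libraries, which may be technical.

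From 21592817 to 39475428 reads were counted on genes per library. The share of reads that lay outside annotated genes was 7.47% to 7.61% in CTR, 6.39% to 7.73% in CX3 and 4.15% to 4.31% in DAT. Library A of CX3 and library B of DAT stood apart from the others of their groups. The median squared difference of their counts from the other libraries of the group was 3.02 to 3.61 times that of sampling in CX3 and 5.68 to 6.83 times in DAT, against 1.46 to 1.83 times for the remaining pairs. Values are CPM (each count as a share of its library's total, scaled by the trimmed mean of M-values, TMM), and differences are log2 fold changes ± SE from edgeR's quasi-likelihood test, with p-values adjusted over all genes tested and a call at 0.05 or under.

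Per kilobase of exon, Mbp had the highest level of the 9 genes in CTR tissue, with 1126 ± 4.46 CPM per kb (SD, n = 3). Mobp followed with 435 ± 2.84 CPM per kb, Cnp with 291 ± 3.07 and Mal with 248 ± 0.164. Mag, Mog and Olig1 lay close together at 124 ± 0.990, 122 ± 1.01 and 119 ± 0.714 CPM per kb. Mag and Mog did not differ beyond their spread. Olig2 had 27.4 ± 0.440 and Pdgfra 7.58 ± 0.119 CPM per kb. In CX3 the first 4 kept this order, and Mag, at 99.3 ± 2.65 CPM per kb, was below Mog at 127 ± 3.73 and Olig1 at 123 ± 4.09, which lay within their spread of each other. In DAT, Mobp, at 211 ± 4.19 CPM per kb, was below Cnp at 293 ± 15.6 and Mal at 220 ± 3.98. The 9 genes together took 1.57% to 1.58% of all gene counts in CTR, 1.67% to 1.75% in CX3 and 0.877% to 0.911% in DAT. Most of that share was Mbp and Mobp, with mean levels of 9533 and 2982 CPM in CTR and 5311 and 1445 in DAT. All 9 genes summed to 15341 to 15436 CPM in CTR and 9460 to 9891 in DAT. The lower share in DAT therefore describes these 2 genes and not the set, of which 4 genes were called higher there. In RNA of whole tissue, a change in the number of oligodendrocytes and one in RNA per oligodendrocyte cannot be told apart.

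Against CTR, the largest differences of the 9 genes were the falls of Mbp and Mobp in DAT tissue. Mbp encodes myelin basic protein, which binds the inner faces of the myelin membrane together, and its mRNA is carried out into the cell's processes. Mbp (ENSMUSG00000041607.17) had 9525, 9575 and 9501 CPM in the CTR libraries, 10763, 10295 and 10454 in CX3 and 5427, 5394 and 5112 in DAT. The 3 groups did not overlap, with DAT far below the other two. In DAT, Mbp fell by 0.84 ± 0.03 on the log2 scale against CTR (adjusted p = 3.46e-11), a change of -44.3%. In CX3 it rose by 0.14 ± 0.03 (adjusted p = 0.00329), which is 10.2%. Mbp shares no exon bases with another annotated gene.

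Mobp encodes myelin-associated oligodendrocytic basic protein, a small protein of compact central myelin. Mobp (ENSMUSG00000032517.16, GRCm38 chromosome 9 from 120149707 to 120181484) had 2960, 2993 and 2994 CPM in CTR, 3059, 3064 and 3165 in CX3 and 1476, 1418 and 1442 in DAT. The DAT libraries were all below the others, and the CX3 libraries lay just above the CTR libraries without overlap. Mobp fell by 1.04 ± 0.03 on the log2 scale in DAT (adjusted p = 5.21e-12), a change of -51.5%. In CX3 its difference of 0.05 ± 0.03 did not pass (adjusted p = 0.212), although it was called with only the CTR and CX3 libraries in the fit (0.06, adjusted p = 0.0337), without DAT library B (0.06, adjusted p = 0.0431) and without TMM scaling (0.10, adjusted p = 0.0208). Mobp shares 1.15% of its exon bases with the transcript Gm38642 on the same strand.

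**Figure D1:**
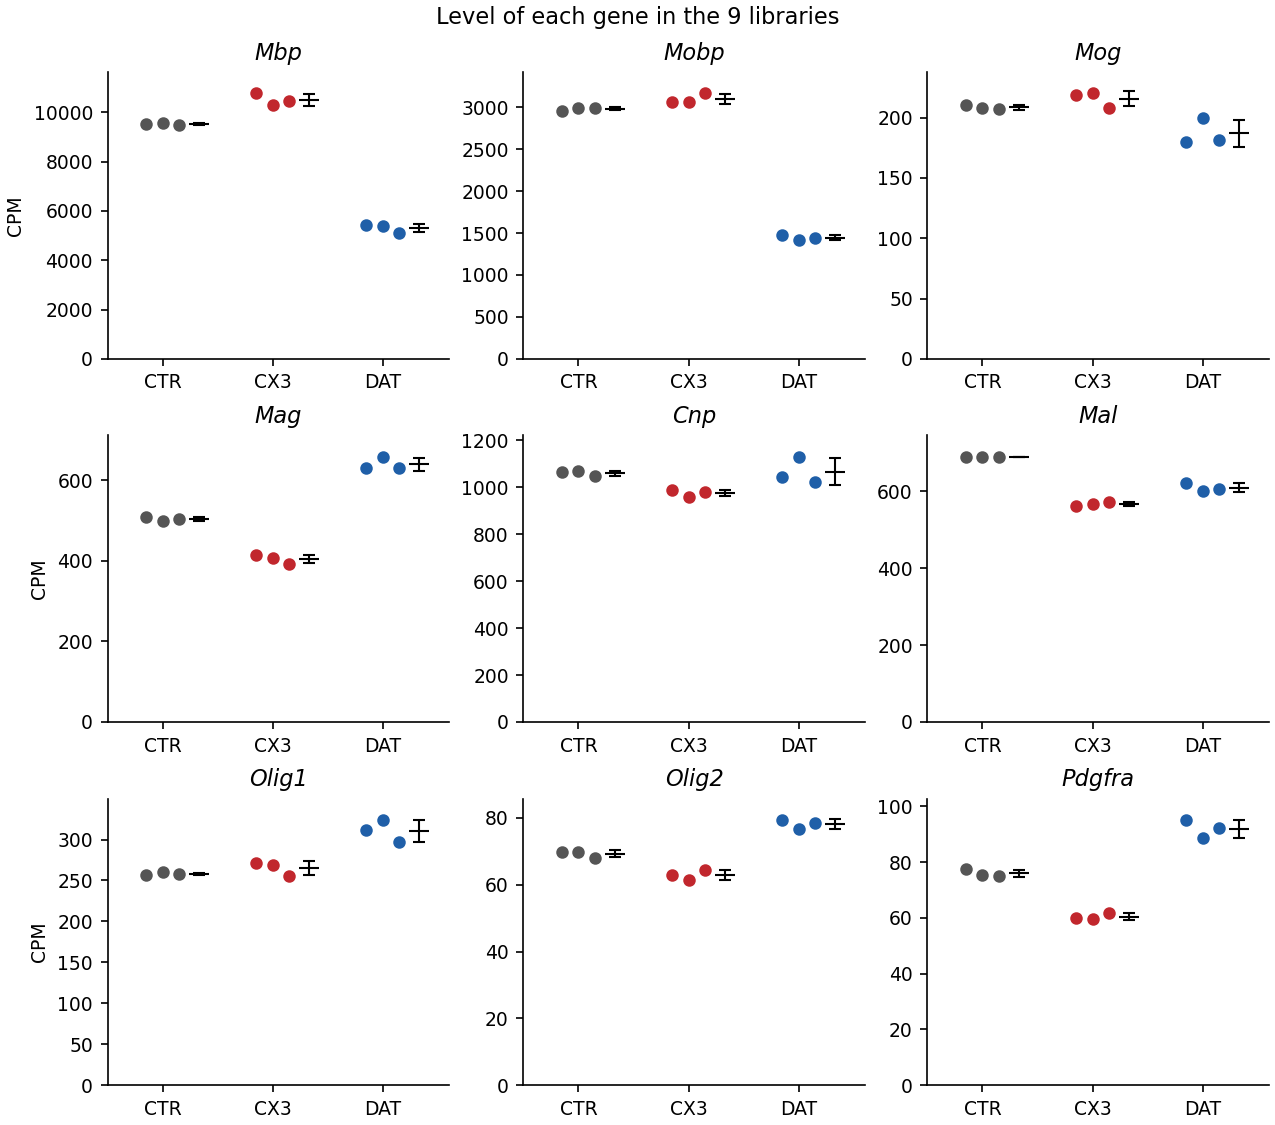
Level of each of the 9 genes in CPM (vertical axis, from 0) in the 3 libraries of CTR, CX3 and DAT; points are libraries, and the black bar at the right of each group is the mean ± SD. Mbp stands between 5112 and 5427 CPM in DAT against 9501 to 9575 in CTR, while Mag stands highest in DAT, at 629 to 658 CPM.

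Mag moved the other way. It encodes myelin-associated glycoprotein, an adhesion protein of the innermost myelin layer that faces the axon. Mag (ENSMUSG00000036634.15, chromosome 7 from 30899176 to 30914873) had 507, 499 and 503 CPM in CTR, 414, 406 and 393 in CX3 and 630.0, 658 and 629 in DAT. The groups did not overlap, with CX3 lowest and DAT highest. Mag rose by 0.34 ± 0.04 in DAT (adjusted p = 2.27e-06), or 27.0%, and fell by 0.32 ± 0.04 on the log2 scale in CX3 (adjusted p = 2.54e-05), or -19.7%.

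Since scaling between libraries enters every CPM, raw counts were also divided by one another within a library. Each Mag read was matched by 18.8, 19.2 and 18.9 Mbp reads in CTR, 26.0, 25.4 and 26.6 in CX3 and 8.61, 8.20 and 8.12 in DAT. Mobp reads per Mag read were 5.83 to 5.99 in CTR, 7.39 to 8.06 in CX3 and 2.15 to 2.34 in DAT. The groups were separate in both ratios, and from low to high stood DAT, CTR and CX3. The pairs were chosen after the values were seen, so this separation is no independent finding. Per Cnp read there were 8.95 to 9.08 Mbp reads in CTR, 10.7 to 10.9 in CX3 and 4.78 to 5.20 in DAT, and 2.78 to 2.86, 3.10 to 3.23 and 1.26 to 1.41 Mobp reads in the same order. The ratio of Mobp to Mbp varied far less, with a mean of 0.313 ± 0.00222 in CTR, 0.295 ± 0.00954 in CX3 and 0.272 ± 0.00961 in DAT.

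**Figure D2:**
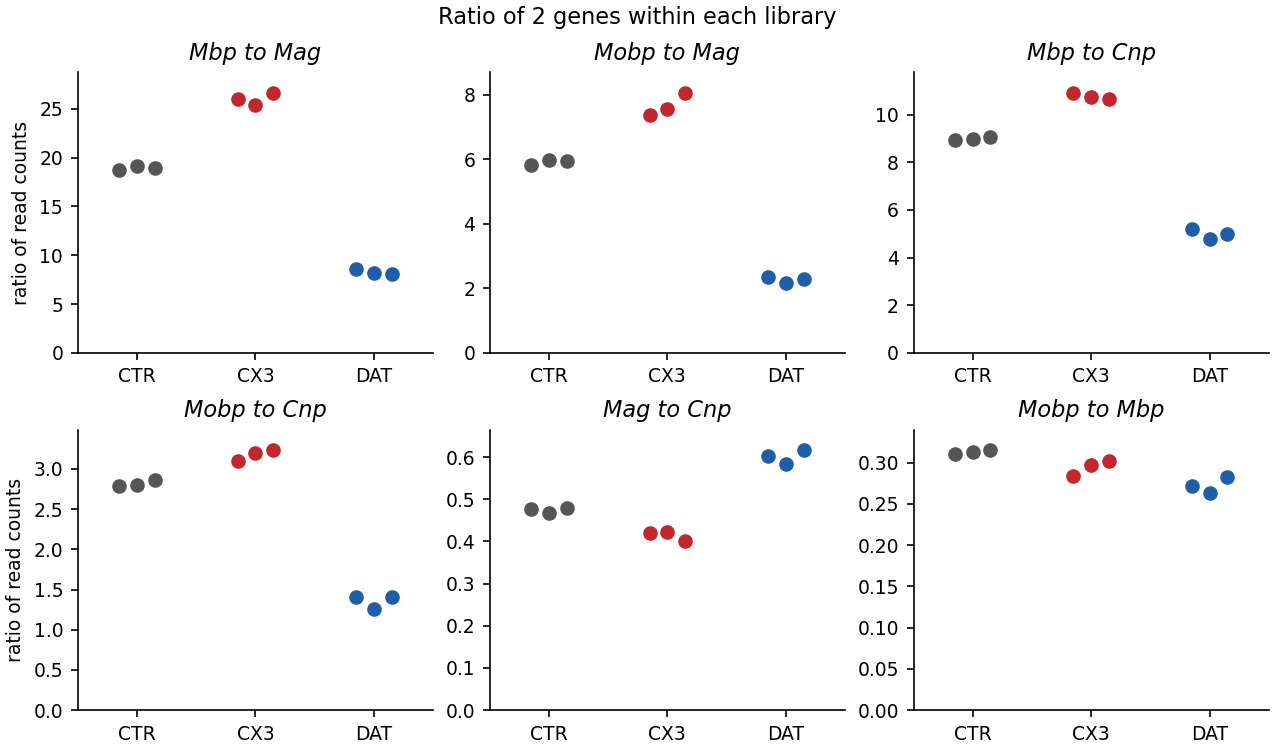
Ratio of the read counts of 2 genes within each library (vertical axis, from 0) for CTR, CX3 and DAT, with 1 point per library. Mbp and Mobp against Mag or Cnp are lowest in the 3 DAT libraries, and Mobp against Mbp lies between 0.263 and 0.315 in all 9.

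The sequences just before the transcription starts of Mobp, Mag and Cnp are shown because in DAT against CTR the first was called lower, the second higher and the third not at all. RefSeq on GRCm38.p6 had promoter entries for 7 of the 9 genes; Mbp and Olig1 had none in this table. Each window covers 215 bases, from 250 to 36 bases before the RefSeq start, 5′ to 3′ on the gene's own strand. Capitals mark ACAAAG, a core bound by Sox factors, and CTGGNAC, the string searched here for the myelin regulatory factor Myrf, each on either strand. The N stands for any base, so this string may be looser than the site of Myrf, and not every match need fit that site. The windows are chr9:120149492-120149706 on the plus strand for Mobp, chr7:30914899-30915113 on the minus strand for Mag and chr11:100574689-100574903 on the plus strand for Cnp.
Mobp: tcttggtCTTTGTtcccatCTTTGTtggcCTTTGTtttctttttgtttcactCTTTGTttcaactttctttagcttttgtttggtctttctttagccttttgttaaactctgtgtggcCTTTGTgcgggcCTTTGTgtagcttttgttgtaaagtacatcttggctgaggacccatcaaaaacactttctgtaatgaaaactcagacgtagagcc
Mag: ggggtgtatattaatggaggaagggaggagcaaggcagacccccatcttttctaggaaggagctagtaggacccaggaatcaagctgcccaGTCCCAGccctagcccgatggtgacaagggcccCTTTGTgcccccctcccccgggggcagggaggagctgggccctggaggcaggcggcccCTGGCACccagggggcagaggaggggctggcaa
Cnp: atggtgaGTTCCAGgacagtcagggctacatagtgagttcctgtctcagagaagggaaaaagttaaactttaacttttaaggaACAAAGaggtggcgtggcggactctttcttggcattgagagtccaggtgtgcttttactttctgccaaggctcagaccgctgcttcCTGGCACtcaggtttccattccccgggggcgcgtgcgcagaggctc

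The Mobp window held 6 matches to ACAAAG, all as CTTTGT on its own strand, and none to CTGGNAC. The windows of Mag and Cnp held 1 match to ACAAAG and 2 to CTGGNAC each. Of 32851 promoter windows of this length, 14.5% held ACAAAG and 14.0% held CTGGNAC at least once, 1.37% held ACAAAG and 1.22% held CTGGNAC at least 2 times, and 1 window held ACAAAG 6 times or more. Neither the E-box CAGCTG (11.1% of windows) nor TATAAA (9.75%) was found in the windows of the 7 genes. The windows stop 36 bases before the start, so a TATA box nearer the start could not be found. The Mog window held 1 match to CTGGNAC, and those of Mal, Olig2 and Pdgfra held none of the motifs searched. A match describes letters and not binding.

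Cnp encodes an enzyme of the non-compact myelin cytoplasm that is widely used as an oligodendrocyte marker. Cnp (ENSMUSG00000006782.16, chromosome 11 from 100574904 to 100591729) had 1064, 1066 and 1046 CPM in CTR, 986, 958 and 979 in CX3 and 1044, 1129 and 1021 in DAT. The CX3 libraries were below all others, and DAT overlapped CTR. The DAT difference was 0.01 ± 0.04 (adjusted p = 0.873), and its sign turned with the scaling and the strand counted, from -0.14 to 0.02 over the alternatives. Without TMM scaling Cnp was called lower in DAT (-0.14, adjusted p = 0.00767). In CX3, Cnp fell by 0.12 ± 0.04 on the log2 scale (adjusted p = 0.0373), a call lost in 12 of 19 alternatives, such as the counts of the reverse strand (-0.11, adjusted p = 0.0534) and the scaling by library size alone (-0.07, adjusted p = 0.184). Cnp shares 4.23% of its exon bases with Dnajc7 on the opposite strand, and the library counts do not separate the strands.

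Mog encodes a glycoprotein of the outermost myelin surface. Mog (ENSMUSG00000076439.12, chromosome 17 from 37010743 to 37023398) had 210.3, 208 and 207 CPM in CTR, 219, 220.1 and 208 in CX3 and 179, 199.97 and 182 in DAT. The DAT libraries were below the others, and CX3 overlapped CTR. Mog fell by 0.16 ± 0.05 on the log2 scale in DAT (adjusted p = 0.0109) and differed by 0.05 ± 0.05 in CX3 (adjusted p = 0.475).

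Mal encodes a membrane proteolipid that sorts cargo to the myelin membrane, and it was the single myelin gene of the 9 that was called lower in both groups. Mal (ENSMUSG00000027375.14, chromosome 2 from 127633226 to 127656695) had 689.9, 689 and 690.3 CPM in CTR, 561, 567 and 572 in CX3 and 622, 602 and 606 in DAT. Every CTR library was above every other library. Mal fell by 0.28 ± 0.03 on the log2 scale in CX3 (adjusted p = 2.84e-05) and by 0.18 ± 0.03 in DAT (adjusted p = 0.000457).

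Olig1 and Olig2 were higher in DAT tissue, and Olig2 was lower in CX3. Olig1 (ENSMUSG00000046160.6, chromosome 16 from 91269772 to 91271933, with 1 exon) had 257, 259.8 and 257 CPM in CTR, 272, 269 and 255 in CX3 and 311, 324 and 297 in DAT. Its DAT libraries were above the rest, while CX3 overlapped CTR. Olig1 rose by 0.27 ± 0.04 in DAT (adjusted p = 0.000102) and differed by 0.04 ± 0.04 in CX3 (adjusted p = 0.515). It shares 7.26% of its exon bases with Gm15966 on the opposite strand.

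Olig2 (ENSMUSG00000039830.9, chromosome 16 from 91225457 to 91228677), its neighbour on the chromosome, had 69.9, 69.9 and 68.0 CPM in CTR, 62.9, 61.5 and 64.5 in CX3 and 79.4, 76.7 and 78.5 in DAT. The groups did not overlap, and the order was the same as for Mag. Olig2 rose by 0.18 ± 0.04 in DAT (adjusted p = 0.00304), a call lost without TMM scaling (0.03, adjusted p = 0.581) and in counts of the reverse strand (0.07, adjusted p = 0.307) or forward strand (0.12, adjusted p = 0.0712). In CX3 it fell by 0.14 ± 0.04 on the log2 scale (adjusted p = 0.0275), and that call was lost in 11 of 19 alternatives, 6 of which left out 1 library. Olig1 reads per Olig2 read were 3.67 to 3.79 in CTR, 3.96 to 4.37 in CX3 and 3.78 to 4.23 in DAT.

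Pdgfra encodes the growth factor receptor of oligodendrocyte precursors, and fibroblasts of the brain's coverings and vessels express it too. Pdgfra (ENSMUSG00000029231.15, chromosome 5 from 75152292 to 75198215) had 77.3, 75.4 and 75.2 CPM in CTR, 59.8, 59.4 and 61.8 in CX3 and 95.2, 88.7 and 92.2 in DAT. The groups did not overlap, with CX3 lowest and DAT highest. Pdgfra rose by 0.28 ± 0.04 in DAT (adjusted p = 9.88e-05) and fell by 0.33 ± 0.04 on the log2 scale in CX3 (adjusted p = 8.05e-05). It shares 4.55% of its exon bases with Gm42802 and 1.66% with Gm42803 on the opposite strand, and 0.299% with Mir7025 on the same strand.

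Some fibroblast genes moved with Pdgfra and others did not. The summed level of 8 fibroblast markers was 238 to 245 CPM in CTR, 205 to 213 in CX3 and 391.5 to 394 in DAT. Of these, 5 were called higher in DAT and 1 lower, where 59.9% of all genes were called. In CX3, 1 was called higher and 5 lower, where 30.5% of all genes were called. The collagen gene Col1a2 had 45.6 to 47.3 CPM in CTR, 22.2 to 22.9 in CX3 and 103 to 109 in DAT, whereas the proteoglycan genes Dcn and Lum passed in neither comparison. Ogn was called lower in both groups (-0.27 in CX3 and -0.26 in DAT), and Pdgfrb was called higher in both (0.30 and 1.35). The part of fibroblasts in the Pdgfra result was not tested.

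**Figure D3:**
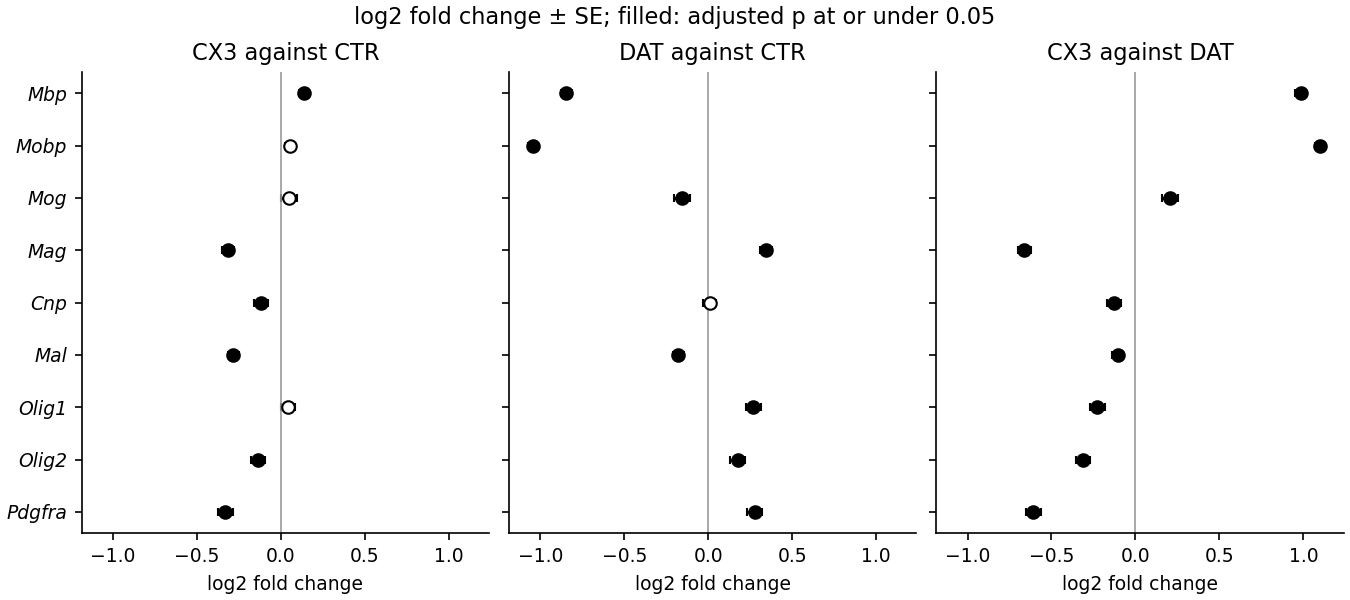
log2 fold change ± SE (horizontal axis) of the 9 genes in CX3 against CTR, DAT against CTR and CX3 against DAT; filled points have an adjusted p at or under 0.05. In DAT the changes run from -1.04 for Mobp to 0.34 for Mag, and in CX3 from -0.33 for Pdgfra to 0.14 for Mbp.

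In CX3 against CTR, 6 of the 9 genes were called, 1 higher and 5 lower, in a comparison where 30.5% of all tested genes were called, 14.0% higher and 16.5% lower. Without CX3 library A, 4 of the 9 were called. Groups did not overlap for 7 of the 9, against 49.3% of all tested genes. The median absolute log2 difference was 0.14 for the 9 genes and 0.19 for all genes. None of the 9 passed edgeR's glmTreat against a fold of 1.2, which 8.44% of all genes passed. Of the 9, 2 had an unadjusted p under 0.05 in that test, and DESeq2's Wald test, which is against no change, called 6.

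In DAT against CTR, 8 of the 9 were called, 4 higher and 4 lower, where 59.9% of all genes were called, 32.0% higher and 27.9% lower. The count was also 8 without DAT library B. Groups did not overlap for 8 of the 9, against 64.1% of all genes, and the median absolute log2 difference was 0.27 for the 9 genes and 0.39 for all. Mbp, Mobp and Mag, 3 of the 9, passed the fold of 1.2, against 39.4% of all genes. Both comparisons use the same CTR libraries.

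Compared directly, CX3 and DAT differed in all 9 genes, 3 higher in CX3 and 6 lower, where 58.9% of all genes were called, 27.6% higher and 31.3% lower. Mobp and Mbp were higher in CX3, by 1.10 ± 0.03 and 0.98 ± 0.03 (adjusted p = 3.84e-12 and 9.55e-12), and so was Mog, by 0.21 ± 0.05 (adjusted p = 0.00185). Lower in CX3 than in DAT were Mag (-0.66 ± 0.04, adjusted p = 3.08e-09), Pdgfra (-0.61 ± 0.04, adjusted p = 4.33e-08), Olig2 (-0.31 ± 0.04, adjusted p = 2.47e-05) and Olig1 (-0.23 ± 0.04, adjusted p = 0.000429). The differences of Cnp (-0.13 ± 0.04, adjusted p = 0.0139) and Mal (-0.11 ± 0.03, adjusted p = 0.0157) were called too, but turned to 0.07 (adjusted p = 0.157) and 0.09 (adjusted p = 0.0338) without TMM scaling. Of 19 alternatives, 8 lost the call of Cnp and 12 that of Mal with the direction kept, and Mal was called in 2 of the 9 fits that left out 1 library. Mbp, Mobp, Mag and Pdgfra, 4 of the 9, passed the fold of 1.2, against 38.2% of all genes. The count of calls was 8 without CX3 library A and 9 without DAT library B.

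Leaving out TMM scaling shifted the median of all genes by -0.15 in DAT against CTR and by 0.20 in CX3 against DAT. It moved the share of calls that were higher from 53.4% to 37.8% in DAT against CTR, from 46.8% to 66.7% in CX3 against DAT, and from 45.9% to 58.9% in CX3 against CTR. Under that scaling Mbp and Mobp in DAT stood at -0.99 and -1.19 against CTR, Mog at -0.30 and Mal at -0.32. The rises in DAT were smaller under it, at 0.20 for Mag, 0.12 for Olig1, 0.13 for Pdgfra and 0.03 for Olig2, the last of which was not called. In CX3 against DAT, Olig1 lost its call (-0.03, adjusted p = 0.521), and Mog stood at 0.40, Olig2 at -0.12, Pdgfra at -0.42 and Mag at -0.47. In CX3 against CTR, Cnp and Olig2 lost their calls (-0.07 and -0.09).

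The other genes of myelin and mature oligodendrocytes did not share one direction. Of 30 such genes, 13 were called higher and 12 lower in DAT, with a median log2 difference of 0.04, and 8 higher and 8 lower in CX3, with a median of -0.04. The median over all tested genes was -0.00381 in DAT and -0.00333 in CX3, and of all genes 32.0% were called higher and 27.9% lower in DAT and 14.0% and 16.5% in CX3. Without TMM scaling 9 of the 30 were called higher and 15 lower in DAT, with a median of -0.11. The summed level of the 30 was 6217 to 6317 CPM in CTR, 6224 to 6264 in CX3 and 5619 to 5902 in DAT.

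Among the most abundant of the 30 per kilobase, Plekhb1, which encodes a membrane protein with a pleckstrin homology domain, fell by 0.80 ± 0.04 on the log2 scale in DAT. Car2, the carbonic anhydrase of oligodendrocytes, fell there by 0.32 ± 0.05. Neither was called in CX3 (adjusted p = 0.127 and 0.668). Cldn11, also among the most abundant, was not called in DAT (-0.09 ± 0.04, adjusted p = 0.094) but fell by 0.38 ± 0.04 on the log2 scale in CX3. The largest called differences in DAT were those of Cryab, a small heat shock protein (-1.16 ± 0.06), and Fa2h, which hydroxylates the fatty acids of myelin lipids (1.07 ± 0.04). Cryab fell by 0.77 ± 0.06 on the log2 scale in CX3 as well. Enpp2, the enzyme that makes lysophosphatidic acid, rose by 0.62 ± 0.03 in CX3. Gsn, which encodes the actin-severing protein gelsolin, and Gpr37, a receptor of maturing oligodendrocytes, differed most between CX3 and DAT, by -0.91 ± 0.04 and -0.79 ± 0.04.

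Enpp2 is also abundant in the choroid plexus, whose other markers moved with the groups. The summed level of 5 such markers was 33.5 to 36.2 CPM in CTR, 1462 to 1572 in CX3 and 862 to 1032 in DAT, most of it Ttr. All 5 markers were called higher in both groups, beside 14.0% of all genes in CX3 and 32.0% in DAT. Their part in the difference of Enpp2 was not tested.

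Of 14 precursor genes, 7 were called higher and 3 lower in DAT, with a median of 0.19, and 2 higher and 5 lower in CX3, with a median of -0.17. Of all genes, 32.0% were called higher and 27.9% lower in DAT, and 14.0% and 16.5% in CX3. Without TMM scaling the DAT calls of the 14 turned to 5 higher and 6 lower, with a median of 0.04, and forward-strand counts gave 5 and 4, with a median of 0.01. Cspg4, the NG2 proteoglycan, rose by 0.95 ± 0.06 in DAT, and Xylt1, which starts glycosaminoglycan chains, rose by 0.83 ± 0.09. Vcan, which encodes the matrix proteoglycan versican, fell by 0.68 ± 0.08 on the log2 scale in DAT and by 0.58 ± 0.07 in CX3. Ptprz1, the most abundant of the list per kilobase, a receptor phosphatase that astrocytes also express, fell by 0.51 ± 0.06 on the log2 scale in CX3. Tnr, which encodes the matrix protein tenascin-R, differed most between CX3 and DAT, by -1.12 ± 0.13. Without CTR library C, 4 of the 14 were called in CX3 in place of 7.

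Genes of committed precursors and newly formed oligodendrocytes numbered 13, of which 5 were called higher and 3 lower in DAT (median 0.10) and 1 higher and 4 lower in CX3 (median -0.11). Without TMM scaling 4 were higher and 6 lower in DAT, with a median of -0.05. The 8 calls in DAT stand beside 59.9% of all genes called there, and the 5 calls in CX3 beside 30.5%. Bcas1, a marker of early myelinating cells, was, like Mbp, higher in CX3 (0.33 ± 0.04) and lower in DAT (-0.87 ± 0.04). Gpr17, a receptor of the transition from precursor to oligodendrocyte, fell by 0.69 ± 0.05 on the log2 scale in CX3 and had a difference of -0.05 ± 0.05 in DAT (adjusted p = 0.393).

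Of 14 lineage transcription factors beside Olig1 and Olig2, 8 were called higher in DAT and 1 lower, with a median of 0.37 (8 and 2, with a median of 0.22, without TMM scaling). These 9 calls stand beside 59.9% of all genes called in DAT, 32.0% higher and 27.9% lower. Myrf, which drives myelin gene transcription, rose by 0.85 ± 0.08 and Sox10, the factor that specifies and maintains the lineage, by 0.75 ± 0.05. In CX3, 3 of the 14 were called higher and 1 lower, with a median of 0.04, where 14.0% and 16.5% of all genes were. There, Hes5, a Notch target that restrains differentiation and is not limited to this lineage, rose by 1.31 ± 0.13, from 1.87 to 4.63 CPM, and Nkx2-2, a factor of committed precursors, by 0.45 ± 0.08. Both rose in DAT as well, Hes5 by 1.17 ± 0.14, to 4.26 CPM, and Nkx2-2 by 0.45 ± 0.08. Neither was called in CX3 against DAT (adjusted p = 0.341 and 0.999). With DAT library B left out, 7 of the 14 were called in CX3.

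**Figure D4:**
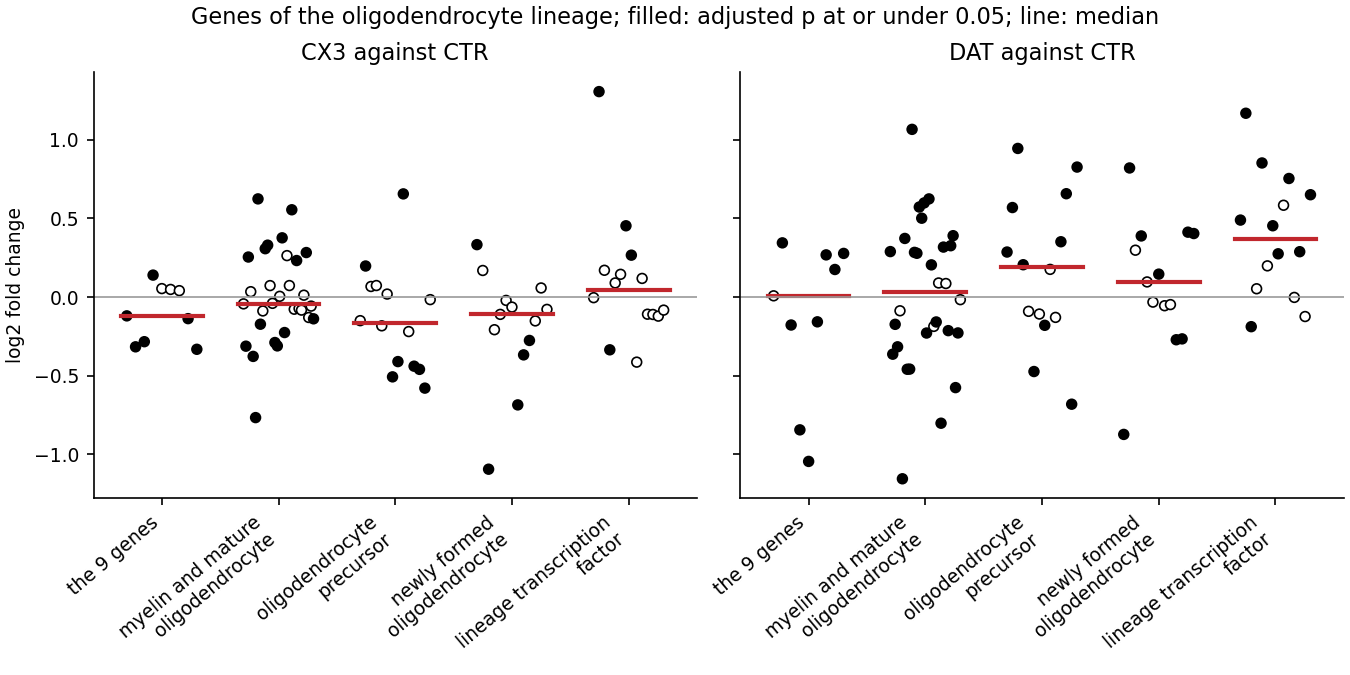
log2 fold change (vertical axis) of the 9 genes and of the other genes of 4 lineage lists in CX3 against CTR and DAT against CTR; each point is a gene, filled at an adjusted p of 0.05 or under, and the red line is the list's median. The medians in DAT run from 0.01 for the 9 genes to 0.37 for the transcription factors, and those in CX3 from -0.17 to 0.04.

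Markers of other cells and of neighbouring regions differed between the groups as well. Peripheral myelin, which Schwann cells make, shares Mbp and Mag with central myelin. The summed level of 7 of its markers was 41.1 to 42.7 CPM in CTR, 35.6 to 38.1 in CX3 and 28.9 to 30.5 in DAT, mostly Cdh19. Pmp2 was at 0 in all 9 libraries, which by itself does not show that peripheral myelin was absent. Of the 5 markers tested, 2 were called higher and 2 lower in DAT, where 59.9% of all genes were called. The 2 higher were Prx, from 0.878 CPM in CTR to 1.58, and Ncmap, from 1.54 to 2.25. In CX3, 0 were called higher and 2 lower, where 30.5% of all genes were called. The part of peripheral myelin in the values of Mbp and Mag was not tested.

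Pan-neuronal markers summed to 3160 to 3173 CPM in CTR, 3564 to 3601 in CX3 and 4594 to 4680 in DAT. In DAT, 6 of 6 were called higher, where 32.0% of all genes were called higher and 27.9% lower. Astrocyte markers summed to 5529 to 5572 CPM in CTR, 3378 to 3482 in CX3 and 3754 to 3770 in DAT. Microglial markers had 690.1 to 698, 458 to 463 and 451 to 463 CPM in the same order, and endothelial markers 149.8 to 152.9, 205 to 213 and 276 to 284. The nigra's own dopaminergic markers were present in all libraries, at 852 to 859.9 CPM in CTR, 1034 to 1053 in CX3 and 664 to 678 in DAT. Called lower in DAT were 3 of 6 astrocyte, 6 of 6 microglial and 4 of 7 dopaminergic markers. Called higher there were 5 of 5 endothelial markers and 1 of the 7 dopaminergic ones. Pituitary markers summed to 61.2 to 63.8 CPM in CTR, 6.07 to 6.41 in CX3 and 18.5 to 23.6 in DAT, and hindbrain granule cell markers to 3.81 to 4.12, 4.25 to 4.63 and 22.3 to 26.3. What these differences in tissue content contribute to the values of the 9 genes was not tested.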

How the data were processed

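Per the labels and the study's methods, the authors trimmed reads with Trimmomatic and aligned them to mm10 with STAR, and they deposited unnormalized read counts per gene for each library, with totals of 21592817 to 39475428. The methods name featureCounts, but the columns are those that STAR itself writes. Although the kit is described as stranded, the reverse strand held 49.8% to 49.9% of strand-specific counts, so counts of both strands together were used. Rows that name no gene (reads unmapped, ambiguous or outside genes) were left out. The 3 groups were fitted together in edgeR 4.0.16 (R 4.3.3) with TMM scaling, filterByExpr, glmQLFit and glmQLFTest, and p-values were adjusted by Benjamini-Hochberg over 20892 genes. The SE is the log2 fold change divided by the root of its F statistic. A floor of 3 counts equals 0.0779 to 0.151 CPM and covers counting error only. Alternatives changed strand, scaling, filter, groups fitted, test (DESeq2 1.42.0, glmTreat) and libraries. The code was tested on simulated data. The 9 genes and all gene lists were chosen with earlier results of these data known. All 9 genes are named. Other lineage genes were named only from among the 3 highest per kilobase of each list and the 2 with the largest called difference per comparison, and not all of these are named. Markers of other cells were named freely. Of the lineage and marker lists, 2 genes are not reported here. Ratios were chosen after the values were seen. Exon lengths are from GENCODE M21, and figures used matplotlib 3.10.9.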

Additional observations from a re-analysis of the deposited data

Results flagged for a closer look

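For 4 of the 9 genes, the differences from CTR were called in opposite directions in CX3 and DAT. A gene was flagged only if CX3 against DAT was called too. The share of all genes that meets this rule is not given here, so the 4 cannot be set against it. Of all genes, 30.5% were called in CX3 against CTR, 59.9% in DAT against CTR and 58.9% in CX3 against DAT. The contrast of CX3 with DAT follows from the differences from CTR in the same fit and is no separate support. The log2 difference of CX3 against DAT was 0.98 for Mbp, which was higher in CX3 and lower in DAT. It was -0.66 for Mag, -0.61 for Pdgfra and -0.31 for Olig2, each of which was lower in CX3 and higher in DAT. Both differences share the CTR libraries, and the CX3 call of Olig2 was lost in 11 of 19 alternatives. Groups of 3 libraries were too small to look for a single deviating library by its gap to the others.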

How the results depend on the processing

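Of 513 values of the 9 genes under the alternatives, 438 kept their direction and side of the threshold, 59 lost their call, 3 gained one and 13 changed sign. The signs that changed were those of Cnp in DAT against CTR, and of Cnp (0.0665) and Mal (0.0876) in CX3 against DAT without TMM scaling. For Cnp in DAT, the values that changed sign were -0.0756 and -0.0743 in forward and reverse strand counts, -0.0137 with DESeq2's size factors, -0.139 without TMM and -0.0348 with only these 2 groups fitted. Over the 9 fits with 1 library left out, Cnp in DAT ranged from -0.0404 to 0.0203, with 6 of the 9 below 0. The cause was not tested.

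Testing against a fold of 1.2 left fewer calls by its construction. In CX3 against CTR these were 0 of the 9 genes and, among the other lineage genes, 5 of myelin and mature oligodendrocytes, 2 precursor genes, 2 of newly formed oligodendrocytes and 2 transcription factors, with 1763 genes in all. In DAT against CTR they were 3, 13, 6, 4 and 8228, where the transcription factors numbered 6. In CX3 against DAT they were 4 of the 9 genes, 10 of myelin and mature oligodendrocytes and 7989 in all. With only CTR and CX3 fitted, 9 transcription factors were called in place of 4. With 1 library left out, the 9 genes gave 4 to 7 calls in CX3 against CTR, 8 in DAT against CTR and 7 to 9 in CX3 against DAT. In CX3 against CTR the precursor genes then gave 4 to 10 calls and the transcription factors 4 to 7.

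The letters A, B and C in the library names are not said to pair the libraries, and no clear shared deviation by letter was seen. Deviations from the group means of libraries with the same letter correlated at -0.16 to 0.04, and 3 of 9 libraries correlated best with a library of their own letter. With the replicate block, 5, 8 and 9 of the 9 genes were called in the 3 comparisons, with 5805, 12144 and 11955 genes in all. Cnp in CX3 against CTR lost its call (-0.12, adjusted p = 0.0555), and the block changed no other call of the 9 genes. Counts of 1524 or more per gene and library set no limit on the 9 genes, and the scaling between groups does for differences under about 0.20.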
